A study of Mus musculus with 8 samples.

Results

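Cholesterol synthesis and its control by the transcription factor SREBP2 were followed through 32 genes in mouse liver and colon. The members were the rows of the deposited table, among 45777 genes, whose NCBI gene ID belonged to 1 of 32 listed symbols, and all 32 were found. They comprised 8 enzymes from acetyl-CoA to the isoprenoid diphosphates, 11 enzymes of squalene and sterol formation, 6 genes of SREBP2 and its control, and 7 genes of sterol transfer, storage and export. RNA came from 4 groups of mice: control, non-alcoholic steatohepatitis (NASH), and a pair of groups that received vesicles secreted into bovine colostrum (EVs), 1 at a low and 1 at a high dose. That the EV groups were of the NASH model was taken from the series design. The sources used here do not give strain, sex, age, diet, dose amounts, time of collection or any pooling of animals. Each group had 1 library of liver and 1 of colon, 8 in all. Every ratio therefore compares 2 libraries, without replicate error and without a test.

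Cells make cholesterol from acetyl-CoA through mevalonate, farnesyl diphosphate, squalene and lanosterol. When sterols in the endoplasmic reticulum run low, SCAP carries SREBP2 to the Golgi, where the proteases encoded by Mbtps1 and Mbtps2 release its active part, which raises the genes of synthesis. When sterols are plentiful, INSIG proteins hold SCAP back, and oxysterols activate LXR, which raises genes of sterol export. The liver both makes cholesterol and disposes of it into bile and lipoproteins. The colon epithelium also makes cholesterol, for its renewing cells.

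Levels are FPKM, read fragments divided by transcript length and by the mapped total of the library, so genes may be set side by side within 1 library, while sequencing depth is unknown. Ratios are differences of log2(FPKM + 1), which understate the change of genes near 1 FPKM. Genes that reached 1 FPKM in at least 1 library of a tissue were kept, which held for 32 of 32 members in liver and 31 in colon. Soat2 was left out in colon, with 0.219 to 0.672 FPKM. In liver the median of all 12866 kept genes was 0.55 log2 units higher in NASH than in control, and stood at -0.14 and -0.13 for the low and the high EV dose over NASH. For that reason liver ratios are relative to the median gene unless called "as deposited". The 15245 kept genes of colon had medians between -0.06 and 0.08, and colon ratios are as deposited. All 8 hepatocyte markers (Alb, Ttr, Cps1 and others) were at 1 FPKM or more in each liver library. All 8 colonocyte markers (Cdx2, Slc26a3, Krt20 and others) were so in each colon library. Cdx2 was listed at 0 in each liver library, but the list of 8 was not absent there. It summed to 148 FPKM in the control liver and 71.6 to 80.0 in the other liver libraries. In colon the hepatocyte markers summed to 101 to 152 FPKM, with 3 to 6 of 8 at 1 FPKM or more.

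Promoters are shown first, and any link of their motifs to the levels was not tested. RefSeq promoters (GRCm38.p6, 250 bases before to 50 after the start) were at hand for 26 members; Fdps, Fdft1, Sqle, Stard4, Npc1 and Soat2 had no entry. The sterol regulatory element bound by SREBP2 was searched as TCACNCCAC on both strands. It was present without mismatch in 1 member, Hmgcs1, and in 1.24% of all 32851 promoters. With up to 1 mismatch in its 8 fixed letters it was found in 11 of 26 members, against 27.0% of 17492 protein-coding genes and 24.2% of all promoters. CCAAT, the motif of NF-Y, lay in 21 of 26 members and 15 of 16 enzymes with a promoter, against 42.3% of protein-coding genes and 37.4% of all promoters. GGGCGG, the motif of Sp1, lay in 21 of 26 members against 49.2% of protein-coding genes, and the E-box CACGTG in 6 of 26 against 8.91%. A gene counted once if any of its promoters held the motif. Such matches describe letters and not bound sites.

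The stretches below lie upstream of the start and outside annotated exons, 5′ to 3′ on the gene's strand. Capitals mark the sterol element with at most 1 mismatch, and CCAAT or its reverse complement ATTGG. Hmgcs1 holds the exact element (chr13:119690161-119690261, plus strand). Cyp51 (chr5:4104747-4104817, minus strand) is an enzyme gene with 1 mismatch that was lower in the NASH liver. Srebf2 (chr15:82147094-82147144, plus strand) and Hsd17b7 (chr1:169969270-169969375, minus strand) hold elements with 1 mismatch and stayed within 2-fold there. Mvk (chr5:114444089-114444259, plus strand) has 5 CCAAT motifs and no match to the sterol element with at most 1 mismatch in the promoter searched. Pmvk (chr3:89454391-89454470, plus strand) and Ebp (chrX:8193513-8193592, minus strand) were lower in the NASH liver and hold CCAAT motifs without a sterol element in these windows.
Hmgcs1: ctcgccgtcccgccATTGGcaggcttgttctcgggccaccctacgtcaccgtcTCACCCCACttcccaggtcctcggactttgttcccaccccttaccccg
Cyp51: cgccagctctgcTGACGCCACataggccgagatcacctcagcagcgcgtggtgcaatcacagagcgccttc
Srebf2: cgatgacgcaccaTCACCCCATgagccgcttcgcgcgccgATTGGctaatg
Hsd17b7: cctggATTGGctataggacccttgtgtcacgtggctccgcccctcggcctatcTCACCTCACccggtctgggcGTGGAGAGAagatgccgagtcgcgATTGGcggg
Mvk: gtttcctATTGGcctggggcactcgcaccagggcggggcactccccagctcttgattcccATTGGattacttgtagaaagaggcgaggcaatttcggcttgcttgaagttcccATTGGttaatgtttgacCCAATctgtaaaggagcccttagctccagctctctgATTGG
Pmvk: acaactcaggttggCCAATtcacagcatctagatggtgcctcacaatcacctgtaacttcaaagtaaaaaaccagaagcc
Ebp: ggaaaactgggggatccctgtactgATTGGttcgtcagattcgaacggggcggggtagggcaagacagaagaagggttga

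In liver the enzymes of cholesterol synthesis were far lower in NASH than in control, in both the mevalonate and the sterol part of the pathway. Summed over the 19 enzymes, the level was 697 FPKM in the control library, 242 in NASH, 245 with the low EV dose and 271 with the high dose. The 3 NASH-model libraries thus lay close together and well below control. Of 32 members 19 were at least 2-fold lower and 0 higher in NASH over control, where 7.66% of all kept genes were lower and 7.21% higher. Among these were 16 of the 19 enzymes, whose median log2 ratio was -1.68 against 0 for all genes. At 1.5-fold, 17 of 19 enzymes were lower (15.8% of all genes) and 1 member, Mylip, was higher (15.6%). As deposited, 13 members were 2-fold lower (3.23% of all genes) and 2 higher (20.5%), with 11 enzymes lower and an enzyme median of -1.13. With libraries scaled to the same sum of FPKM, 10 members were lower and 5 higher (Mylip, Npc1, Abca1, Abcg5 and Mbtps2), and the enzyme median was -0.76. The shares of all genes were not computed with that scaling, so whether these counts exceed them is not known. In bulk tissue, fewer cells of a type and less RNA per cell cannot be told apart.

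**Figure D1:**
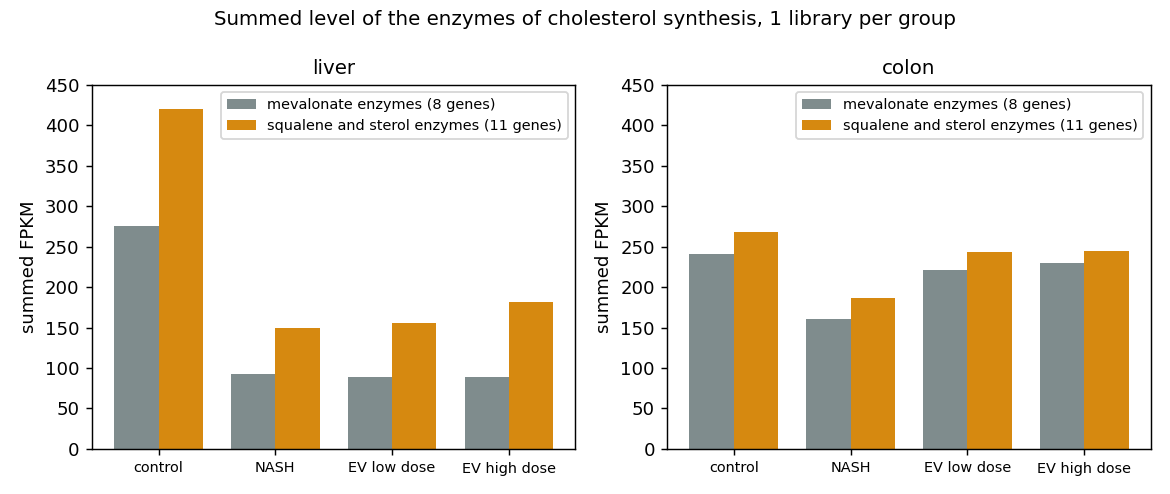
Summed FPKM (linear axis from 0) of the 8 mevalonate and 11 squalene and sterol enzymes in the 4 liver and 4 colon libraries, 1 library per bar pair. In liver the sums were 276 and 421 FPKM in control and 92.7 and 149 in NASH, with both EV libraries near NASH, while in colon NASH was lowest, at 161 and 187.

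Of the enzymes that build the isoprenoid chain, Fdps and Idi1 were lowest relative to control. Fdps, farnesyl diphosphate synthase (gene ID 110196, chromosome 3, 89093588 to 89101967), was at 113 FPKM in control, 17.4 in NASH, 16.9 with the low and 17.5 with the high EV dose. Idi1, the isomerase that supplies its allylic substrate (gene ID 319554, chromosome 13, 8885606 to 8892396), was at 18.4, 2.32, 3.01 and 3.06 FPKM in the same order. Control stood apart from the other libraries in both genes, with log2 ratios of -3.18 and -3.10 in NASH. Pmvk, phosphomevalonate kinase, was at 38.8 FPKM in control and between 8.79 and 9.42 in the other libraries (log2 -2.58 in NASH). Hmgcs1, the cytosolic HMG-CoA synthase at the entry of the pathway (gene ID 208715, chromosome 13, 119690351 to 119708260), was at 53.3 FPKM in control, 23.8 in NASH, 21.7 and 21.0 with the EV doses (log2 -1.68). Its promoter is the one with the exact sterol element shown above. Mvk, mevalonate kinase, and Mvd, the decarboxylase after it, were lower by less, with log2 ratios of -1.20 and -1.18 that stood at -0.64 and -0.63 as deposited.

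A pair of genes at the edges of this segment lay within 2-fold. Acat2, the cytosolic thiolase that joins acetyl-CoA units, was at 37.6 FPKM in control and 29.8 to 30.6 in the other libraries (log2 -0.84 in NASH, -0.29 as deposited and 0.09 with same-sum scaling). Ggps1, which diverts farnesyl diphosphate to geranylgeranyl diphosphate for protein prenylation, was at 2.47 FPKM in control, 2.87 in NASH, 3.29 and 2.98 with the EV doses. Its ratio was -0.39 relative to the median gene and 0.16 as deposited, so its direction depends on the scaling. The other enzymes that use isoprenoids (Dhdds, Pdss1, Coq2, Fntb and others) had 12 of 12 members within 2-fold, where 7.21% of all genes were higher and 7.66% lower. Their list median was 0.13, or 0.68 as deposited with 7 of 12 past 1.5-fold higher. As deposited, 6123 of all 12866 kept genes were also past 1.5-fold higher, with a median of 0.55, so the list lay near all genes.

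Among the squalene and sterol enzymes 10 of 11 were at least 2-fold lower in NASH, with a median of -1.98. Tm7sf2, a sterol reductase acting on the product of Cyp51 (gene ID 73166, chromosome 19, 6062821 to 6067850), was the lowest of all members, at 53.9 FPKM in control, 4.19 in NASH, 4.48 with the low and 6.16 with the high EV dose (log2 -3.96). Sqle, squalene epoxidase and a rate-limiting step, was at 8.25 FPKM in control, 1.32 in NASH, 1.13 and 1.16 with the EV doses (log2 -2.55). Both were separated from control in each of the 3 other libraries. Sqle lies near the pseudocount, and its ratio was -3.26 with a pseudocount of 0.1 FPKM and -1.35 with 5 FPKM. Msmo1, an oxidase of sterol methyl groups that acts after Cyp51 (gene ID 66234, chromosome 8, 64718123 to 64733578), was at 55.6 FPKM in control, 10.9 in NASH, 16.6 with the low and 22.2 with the high EV dose. Cyp51, lanosterol demethylase, was at 17.5, 3.97, 4.62 and 5.77 FPKM in that order. These genes were lower in NASH by log2 ratios of -2.80 and -2.44, and the high-dose library was the nearest to control in both.

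Nsdhl, a dehydrogenase of the demethylation complex of Msmo1, was at 11.5 FPKM in control and 2.45 to 2.75 in the other libraries (log2 -2.33 in NASH). Ebp, the sterol isomerase, was at 105 FPKM in control, 38.4 in NASH, 41.1 and 48.1 with the EV doses (log2 -1.98). Sc5d, the desaturase after Ebp, was the most abundant member in control at 131 FPKM and in NASH at 61.8 FPKM (log2 -1.62). Fdft1, squalene synthase, Dhcr7, which makes cholesterol in the last reduction, and Lss, lanosterol synthase, lay between -1.33 and -1.17, and at -0.77, -0.64 and -0.62 as deposited. Hsd17b7, the ketoreductase that works with Msmo1 and Nsdhl, was the exception, at 6.70 FPKM in control, 7.40 in NASH, 7.03 and 7.55 with the EV doses. The 4 libraries differed little, and its ratio was -0.43 relative to the median gene and 0.13 as deposited. By sequence, 13 of 13 enzymes with a promoter that were 2-fold lower in the NASH liver held CCAAT (42.3% of protein-coding genes). The sterol element with up to 1 mismatch lay in 5 of 13 (27.0% of protein-coding genes). Of the 3 that were not lower, 2 held CCAAT and 2 the element.

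**Figure D2:**
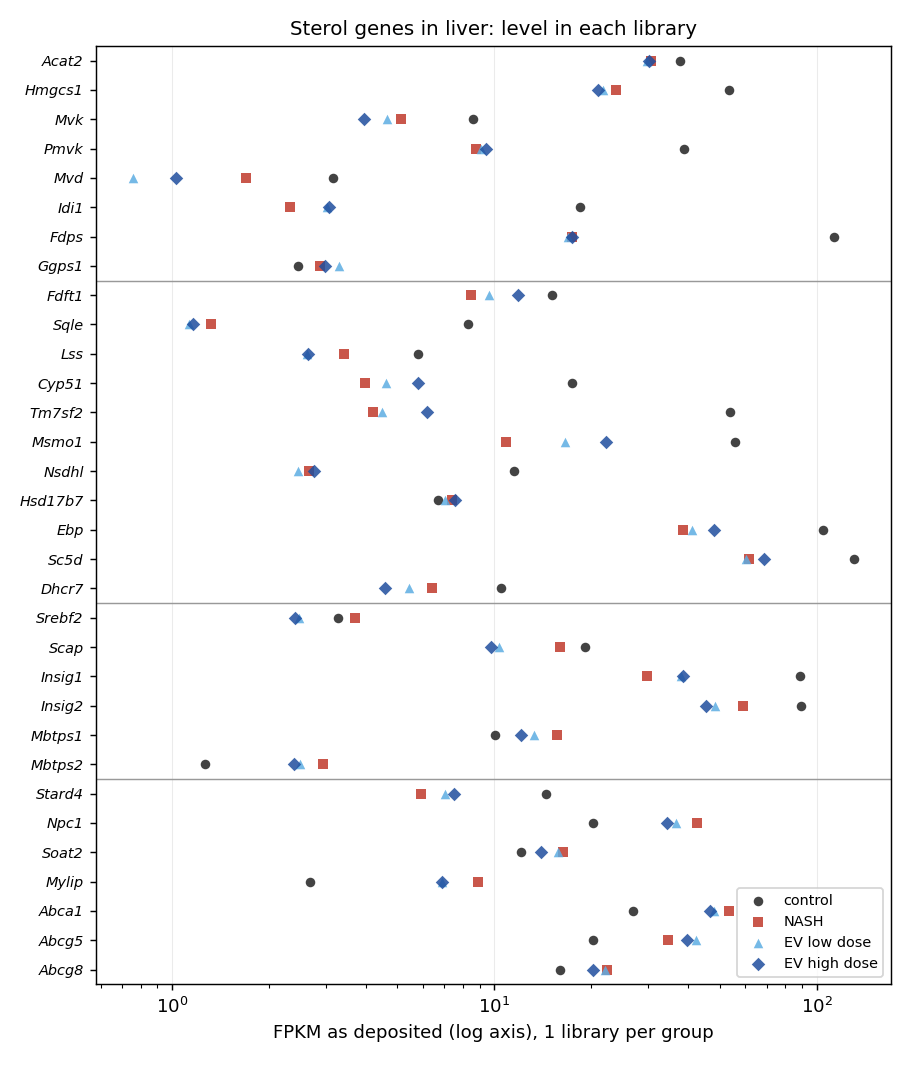
FPKM as deposited (log axis) of the 32 members in the 4 liver libraries, 1 point per library, with lines between the mevalonate enzymes, the sterol enzymes, SREBP2 and its control, and sterol transfer, storage and export. Control lies apart to the right for most enzymes, such as Tm7sf2 (53.9 FPKM against 4.19 in NASH), and to the left for Mylip, Npc1 and Abca1.

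Of the 6 genes of SREBP2 and its control, 2 were at least 2-fold lower in the NASH liver, Insig1 and Insig2 (7.66% of all genes). In the other direction 0 were higher (7.21%). As deposited 1 was lower, Insig1 (3.23% of all genes), and 0 higher (20.5%). The list median was -0.60, or -0.05 as deposited. Srebf2, which encodes SREBP2, was at 3.27 FPKM in control, 3.70 in NASH, 2.48 with the low and 2.40 with the high EV dose. Its NASH ratio was -0.41, and 0.14 as deposited. Scap, the escort of SREBP2, was at 19.1, 16.0, 10.4 and 9.74 FPKM in the same order, highest in control and lowest in the EV libraries (log2 -0.80 in NASH, 0.12 with same-sum scaling). Insig1, which holds SCAP back and is itself raised by SREBP2 (gene ID 231070, chromosome 5, 28071412 to 28078662), was at 88.9 FPKM in control, 29.7 in NASH, 37.8 and 38.5 with the EV doses (log2 -2.10 in NASH). Insig2, its paralog, was at 89.2, 59.0, 48.4 and 45.3 FPKM (log2 -1.14, or -0.59 as deposited). The paralogs were nearly level in control and apart in NASH, and over NASH the EV libraries were higher for Insig1 and lower for Insig2. Mbtps1 and Mbtps2, the proteases that cut SREBP2, had log2 ratios of 0.04 and 0.24, or 0.60 and 0.79 as deposited.

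Apart from Stard4, the genes of sterol transfer, storage and export did not follow the enzymes. Stard4, a carrier that moves cholesterol between membranes and is raised by SREBP2, was the only one of these 7 genes past 2-fold, at 14.5 FPKM in control, 5.90 in NASH, 7.05 and 7.50 with the EV doses (log2 -1.72). Mylip, an LXR target that marks lipoprotein receptors for degradation, was at 2.68 FPKM in control, 8.86 in NASH, 6.90 and 6.89 with the EV doses. Npc1, which lets cholesterol leave lysosomes, was at 20.2, 42.7, 36.6 and 34.4 FPKM, and Abca1, the exporter that loads HDL and another LXR target, at 27.0, 53.6, 47.9 and 46.6 FPKM. Control was the lowest library for all 3. Relative to the median gene their ratios were 0.87, 0.49 and 0.41, within 2-fold, while as deposited Mylip (1.42) and Npc1 (1.04) passed 2-fold and Abca1 did not (0.97). Abcg5 and Abcg8, which pair to form the pump for sterol export into bile, were at 20.3 and 16.0 FPKM in control and at 34.6 and 22.4 in NASH (log2 0.19 and -0.09, or 0.74 and 0.46 as deposited). Soat2, which esterifies cholesterol in hepatocytes and enterocytes, was at 12.1 FPKM in control and 14.0 to 16.3 in the other libraries (log2 -0.15, or 0.40 as deposited). The gene bodies of Abcg5 and Abcg8 overlap by 6710 bases and those of Npc1 and Rmc1 by 8982. Other members overlap too: Lss with 4930483K19Rik (11269 bases), Insig1 with Gm35223 (7251), Mvd with Gm51557 (3213), Mbtps2 with Yy2 (2867), Fdft1 with Ctsb (774), Acat2 with Gm20591 (634), and Fdps, Srebf2 and Tm7sf2 by 104 bases or less. Whether reads were counted by strand is not given in the sources used here, so all these values may share reads.

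**Figure D3:**
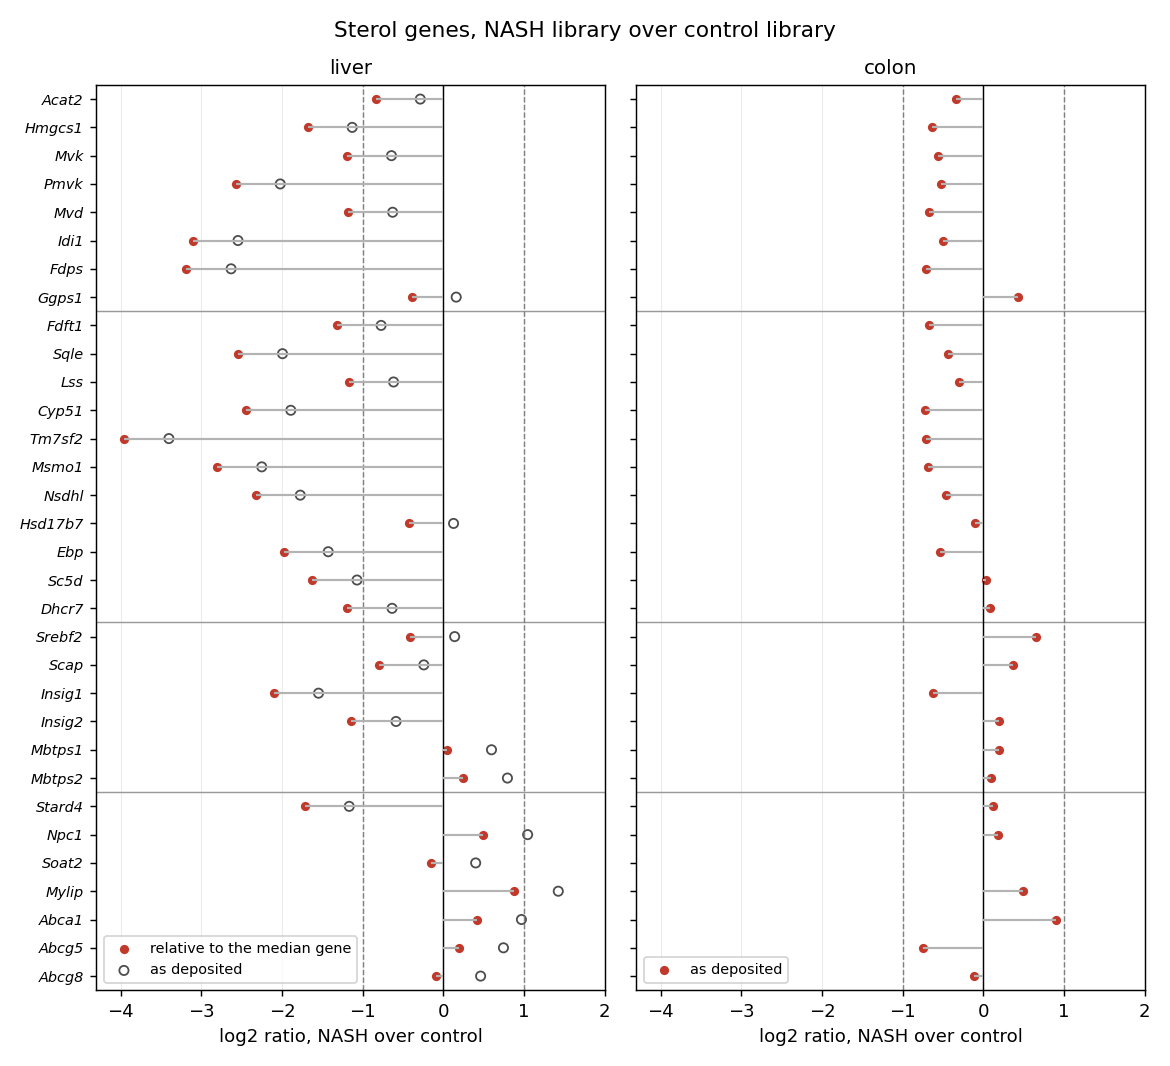
Log2 ratio of the NASH over the control library for the 32 members in liver (left; filled, relative to the median gene; open, as deposited) and colon (right; as deposited), with dashed lines at 2-fold and 1 ratio per gene. In liver 19 members lie at or below -1 and Tm7sf2 is lowest at -3.96; in colon none passes 2-fold and 16 of 19 enzymes lie below 0.

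Genes around the pathway were taken from further lists. Those past 2-fold higher in the NASH liver in the lists of sterol handling were the sterol exporter Abcg1 (1.34 FPKM in control, 11.1 in NASH, log2 1.81), the esterifying enzyme Soat1 (0.869 and 8.29, log2 1.76), the SCAP ubiquitin ligase Rnf145 (2.90 and 17.5, log2 1.69) and the cholesteryl ester hydrolase Nceh1 (4.08 and 21.8, log2 1.62). These were 1 of 9 kept genes of LXR and oxysterols, 2 of 16 of other sterol trafficking and 1 of 9 of sterol-regulated degradation, against 7.21% of all genes. As deposited the counts were 2, 5 and 2, against 20.5% of all genes. In the LXR and oxysterol list 2 of 9 kept genes were lower (7.66% of all genes), Cyp7b1 (log2 -3.58) and Cyp27a1 (log2 -1.09, or -0.54 as deposited). Both encode hydroxylases that turn sterols toward bile acids. As deposited 1 was lower, Cyp7b1 (3.23% of all genes). In the same library all 8 macrophage markers were higher, with summed levels of 120 FPKM in control and 590 to 687 in the others. Trem2 and Gpnmb, markers of lipid-laden macrophages, were at 0.0991 and 0.0243 FPKM in control and 16.3 to 26.3 in the others. The part of macrophages in these values was not tested. Hepatocyte markers summed to 32494 FPKM in control and 22897 to 23826 in the others, with a list median of -0.92 in NASH, or -0.37 as deposited. Fatty acid synthesis, which is driven by the related factor SREBP1c, had 5 of 13 kept genes lower (7.66% of all genes) and 1 higher (7.21%), with a median of -0.80, or -0.25 as deposited. Thrsp (log2 -2.66), Acss2 (-2.60), Acly (-1.84) and Acacb (-1.66) were lowest, and Fads2 (1.21), named here after its values were seen, was higher.

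Control also stood apart in clock genes, which bears on every ratio over control. Summed over 12 clock genes, liver had 42.3 FPKM in control and 119 to 138 elsewhere. Dbp was at 1.60 FPKM in control and 28.5 to 38.1 in the others, and Bmal1 at 5.53 against 0.184 to 0.816. Colon showed the same, with a sum of 66.1 FPKM in control and 189 to 208 in the others. Sterol synthesis is known to vary over the day and with feeding. Disease and hour of collection cannot be told apart in these libraries.

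In both EV libraries most liver enzymes stood within 1.5-fold of NASH, with Msmo1 above it and, as deposited with the low dose, Mvd below it among the exceptions. With the low dose 0 of 32 members were 2-fold higher or lower than in NASH, where 0.443% of all genes were higher and 0.225% lower. With the high dose 1 was higher (0.816% of all genes) and 0 lower (0.373%). That gene was Msmo1, at 10.9 FPKM in NASH, 16.6 with the low and 22.2 with the high dose, against 55.6 in control. Its log2 ratios over NASH were 0.70 and 1.10, and the latter was 0.96 as deposited, just under 2-fold. At 1.5-fold, Msmo1 was the 1 member higher with the low dose (2.29% of all genes), and Msmo1 and Tm7sf2 were higher with the high dose (4.0%). As deposited at 1.5-fold, the low dose had 0 members higher (1.26% of all genes) and 1 lower (4.2%), Mvd at -0.62, and the high dose had 1 higher (2.13%), Msmo1, and 1 lower (8.6%), Scap at -0.66. The ratios for both doses share the NASH library and are not independent.

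The 19 enzymes had a median of 0.10 over NASH with the low dose and 0.17 with the high dose, where all genes stood at 0. As deposited these medians were -0.04 and 0.04, with 8 and 12 of 19 enzymes above 0 against 28.9% and 33.4% of all genes, so the direction for the low dose depends on the scaling. In the sterol part, Tm7sf2, Cyp51, Fdft1 and Ebp had ratios of 0.60, 0.58, 0.57 and 0.45 with the high dose, and 0.21, 0.31, 0.31 and 0.23 with the low dose. Fdft1 was at 8.44 FPKM in NASH, 9.61 with the low and 11.8 with the high dose, against 15.1 in control. Mvd and Dhcr7 lay the other way. Mvd was at 3.16 FPKM in control, 1.69 in NASH, 0.754 with the low and 1.03 with the high dose (log2 -0.48 and -0.27). Dhcr7 was at 10.5, 6.40, 5.45 and 4.58 FPKM (log2 -0.06 and -0.27). Fdps, Sqle and Hmgcs1 lay between -0.04 and 0.14 in both EV libraries.

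Between the doses, 10 of 11 squalene and sterol enzymes were above 0 in the high-dose over the low-dose liver, with a median of 0.19, where 50.5% of all genes as deposited were above 0. The exception was Dhcr7 (-0.21). For the 8 mevalonate enzymes 5 were above 0, with a median of 0.02. No member passed 1.5-fold in this comparison, where 1.06% of all genes were higher and 1% lower by that much. Against control, 15 of 19 enzymes were at least 2-fold lower in each EV library (5.69% of all genes with the low dose and 5.14% with the high dose), with medians of -1.64 and -1.49. In the SREBP2 group, Insig1 was above NASH with both doses (log2 0.47 and 0.50), and Scap (-0.44 and -0.53) and Srebf2 (-0.30 and -0.33) were below it. Cyp7b1, outside the members, was at 13.1 FPKM in NASH, 14.8 with the low and 26.2 with the high dose, against 114 in control. Its log2 ratios over NASH were 0.31 and 1.09, and the latter was 0.95 as deposited, under 2-fold. It was the 1 of 9 kept genes of its list past 2-fold higher with the high dose (0.816% of all genes). Thrsp was the gene of the fatty acid list past 2-fold in both EV libraries (log2 2.17 and 1.78).

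**Figure D4:**
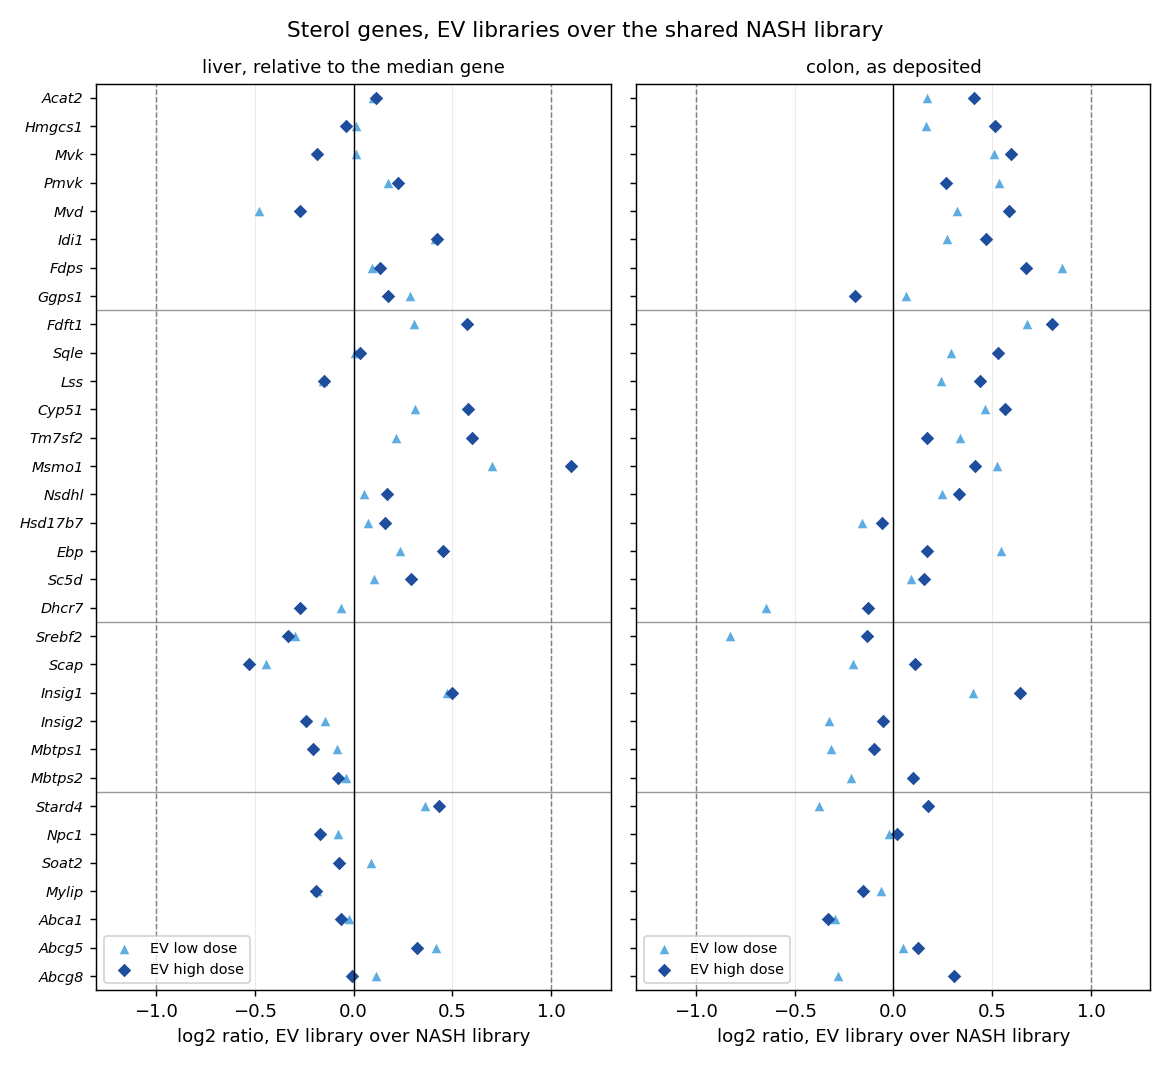
Log2 ratio of the low-dose (triangles) and high-dose (diamonds) EV library over the same NASH library for the 32 members, in liver relative to the median gene and in colon as deposited, with dashed lines at 2-fold. In liver Msmo1 is the only point past 2-fold (1.10 with the high dose); in colon 17 of 19 enzymes with the low dose and 16 of 19 with the high dose lie above 0.

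In colon the enzymes were also lower in NASH, by a much smaller factor, and stood near control again in both EV libraries. Their summed level was 509 FPKM in control, 348 in NASH, 465 with the low and 474 with the high EV dose. Of the kept members 0 of 31 were 2-fold lower or higher in NASH over control, where 1.97% and 2.43% of all genes were. At 1.5-fold, 7 of 19 enzymes were lower and 0 higher, against 5.34% and 8.69% of all genes. Below 0 were 16 of 19 enzymes, with a median of -0.52, against 42.9% of all genes and a median of 0.06. The number past 1.5-fold was 2 when libraries were scaled to the same sum and 4 with a pseudocount of 5 FPKM.

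Cyp51 was at 27.7 FPKM in control, 16.4 in NASH, 23.0 with the low and 24.7 with the high EV dose (log2 -0.72 in NASH). Fdps was at 69.0, 41.8, 76.3 and 67.0 FPKM in the same order (log2 -0.71). Msmo1 was at 80.1, 49.6, 71.8 and 66.4 FPKM (log2 -0.68). In each of these the NASH library was the lowest of the 4. The others past 1.5-fold were Tm7sf2 (log2 -0.71), Mvd (-0.68), Fdft1 (-0.67) and Hmgcs1 (-0.64). Hmgcs1 was at 78.3 FPKM in control, 49.996 in NASH, 56.1 and 71.7 with the EV doses, so the low dose lay nearer to NASH and the high dose nearer to control. Sqle was at 29.6, 21.5, 26.5 and 31.5 FPKM, and Idi1 at 18.7, 12.9, 15.8 and 18.3 FPKM, with the high-dose library at or near control. Tm7sf2 remained lower, at 13.4 FPKM in control, 7.81 in NASH, 10.1 and 8.92 with the EV doses. Ggps1 (log2 0.43), Sc5d (0.04) and Dhcr7 (0.08) were the enzymes not below 0, and Sc5d changed sign relative to the median gene. Hsd17b7 (-0.11) changed sign with same-sum scaling.

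**Figure D5:**
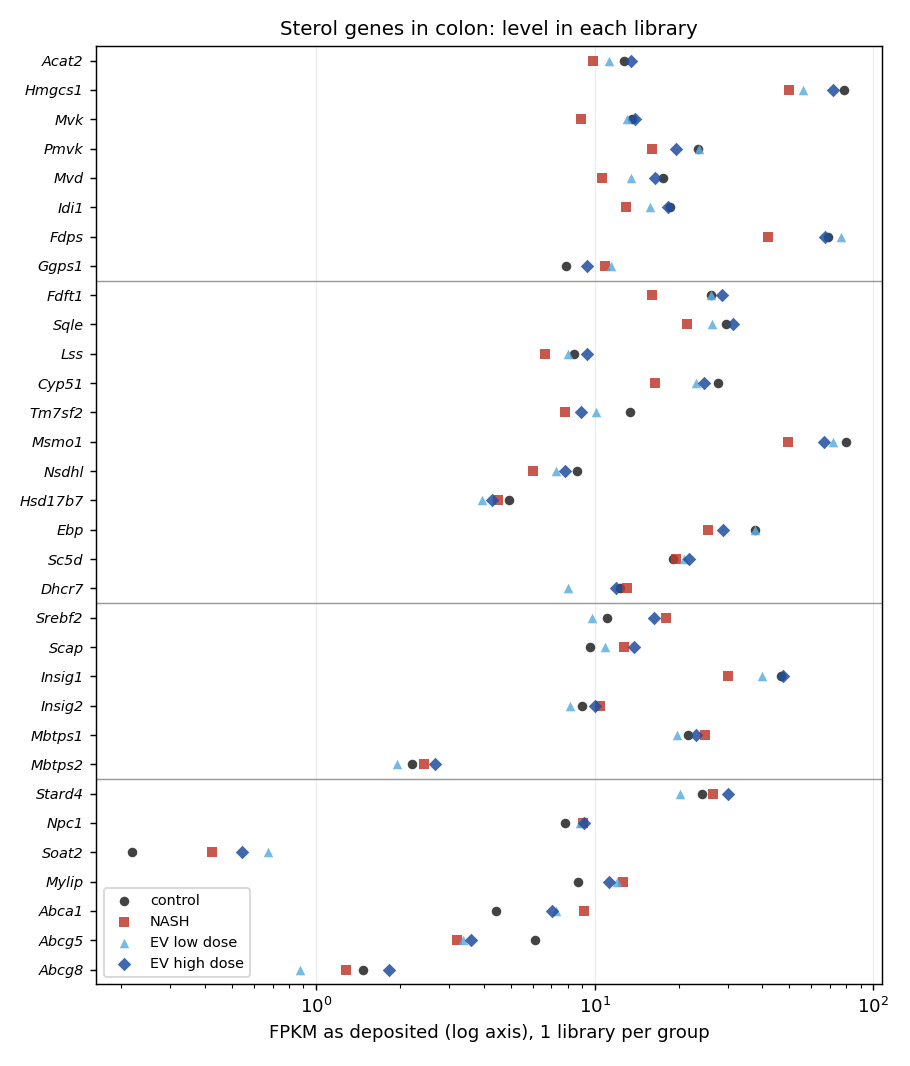
FPKM as deposited (log axis) of the 32 members in the 4 colon libraries, 1 point per library, grouped as in liver. The NASH square is the leftmost point for most enzymes, among them Fdps at 41.8 FPKM against 67.0 to 76.3 in the others, while Abca1 and Srebf2 are highest in NASH.

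With the low EV dose 0 of 31 colon members were 2-fold higher or lower than in NASH (0.905% and 1.95% of all genes), and with the high dose also 0 (1.1% and 1.43%). Any difference counted, 17 of 19 colon enzymes were above NASH with the low dose (43.3% of all genes) and 16 of 19 with the high dose (53.1%), with medians of 0.29 and 0.41. Past 1.5-fold higher were 2 enzymes with the low dose, Fdps (log2 0.85) and Fdft1 (0.67), and 3 with the high dose, Fdft1 (0.80), Fdps (0.67) and Mvk (0.60). The shares of all genes were 4.09% and 2.65%. Dhcr7 lay the other way with the low dose, at 12.3 FPKM in control, 13.1 in NASH, 8.01 with the low and 11.9 with the high dose (log2 -0.65). It and Srebf2 were the members past 1.5-fold lower with the low dose (8.46% of all genes). Against control no enzyme passed 1.5-fold in either EV library, where 4.05% and 5.02% of all genes were higher and 4.47% and 3.94% lower, and the enzyme medians were -0.16 and -0.05. All these ratios share the NASH or the control library.

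SREBP2 and its escort did not follow the colon enzymes. Srebf2 was at 11.1 FPKM in control, 18.1 in NASH, 9.76 with the low and 16.4 with the high dose (log2 0.66 in NASH over control, -0.82 in the low dose over NASH). Scap was at 9.61, 12.7, 10.9 and 13.8 FPKM. Both were higher in the NASH and high-dose libraries than in control and low dose. Over the low dose, the high-dose colon had 2 members past 1.5-fold higher, Srebf2 (log2 0.69) and Abcg8 (0.59), and 0 lower, where 4.2% and 2.35% of all genes were. Insig1 went with the enzymes, at 46.8 FPKM in control, 30.0 in NASH, 40.0 and 47.3 with the EV doses (log2 -0.62 in NASH), while Insig2 stood between 8.15 and 10.5 FPKM. Mbtps1 (19.8 to 24.8 FPKM) and Mbtps2 (1.96 to 2.68 FPKM) were lowest with the low dose. Of the SREBP2 targets that are not enzymes, Stard4 stood at 24.3 FPKM in control, 26.5 in NASH, 20.2 with the low and 30.0 with the high dose, and so did not follow Insig1.

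Export genes of colon were split. Abca1 was at 4.42 FPKM in control, 9.14 in NASH, 7.26 with the low and 7.05 with the high dose (log2 0.90 in NASH). Mylip was at 8.69 FPKM in control and 11.2 to 12.6 in the others (log2 0.49 in NASH). Abcg5 was at 6.10 FPKM in control, 3.22 in NASH, 3.36 and 3.60 with the EV doses (log2 -0.75). Control was the lowest library for Abca1 and Mylip and the highest for Abcg5. Over control, the low and high EV doses had log2 ratios of 0.61 and 0.57 for Abca1 and 0.43 and 0.34 for Mylip. For Abcg5 they were -0.70 and -0.63. Abcg8, the partner of Abcg5, was between 0.877 and 1.82 FPKM and Npc1 between 7.84 and 9.17 FPKM. The fixed lists around the pathway had 0 genes past 2-fold in colon NASH over control in isoprenoid use, sterol-regulated degradation, LXR and oxysterols, and other trafficking. Fatty acid synthesis had 1 of 13 higher and 0 lower, with a list median of -0.01. The shares of all genes were 2.43% higher and 1.97% lower. The higher gene was the desaturase Scd1, at 16.7 FPKM in control, 77.2 in NASH, 30.5 and 16.8 with the EV doses (log2 2.14). Adipocyte markers summed to 85.4, 292, 135 and 62.6 FPKM in the same order, and their part in the Scd1 values was not tested.

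Colon libraries differed in tissue other than epithelium. All 5 seminal vesicle markers were present in the NASH library, with 14640 FPKM or 1.78% of its total, and all 5 were listed at 0 in the others. The 6 adipocyte markers summed to 85.4 FPKM in control, 292 in NASH, 135 with the low and 62.6 with the high dose, and Ucp1 was at 15.2 FPKM in the NASH colon and listed at 0 in the other colon libraries. Pancreatic acinar markers, 6 in all, summed to 2302 FPKM with the high dose and 0.491 to 46.2 in the others. Colonocyte markers summed to 3214, 3451, 4586 and 3462 FPKM and smooth muscle markers to 1709, 1556, 1514 and 1954 in control, NASH, low and high dose. In the same order T and B cell markers summed to 320, 174, 424 and 309 FPKM and macrophage markers to 257, 205, 316 and 245. NASH was the lowest library for both lists. Proliferation genes summed to 83.4 FPKM in control and 47.7 to 55.0 in the others. The part of these in the sterol values was not tested. Dbp of the clock genes was at 1.67 FPKM in control, 46.1 in NASH, 48.7 with the low and 51.5 with the high dose. The part of the clock in the colon sterol values was not tested.

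Between tissues, the order of the members differed. In the control liver the highest were Sc5d (131 FPKM), Fdps (113) and Ebp (105), and in the control colon Msmo1 (80.1), Hmgcs1 (78.3) and Fdps (69.0). The summed enzyme level of control was higher in liver (697 FPKM) than in colon (509), and in NASH lower in liver (242) than in colon (348). Set against each other in control, liver and colon had Sqle at 8.25 and 29.6 FPKM, Srebf2 at 3.27 and 11.1, and Insig2 at 89.2 and 9.0. Soat2 reached 12.1 FPKM in liver and 0.219 in colon. With 1 library each, no neighbours in these orders can be said to differ beyond animal spread.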

How the data were processed

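The values analysed were FPKM, as deposited by the authors in 1 table with 1 column per library. Trimmomatic 0.38, HISAT2 and StringTie are listed with the mm10 build in the submitters' processing notes, and per the labels' protocols libraries were made with a stranded total RNA kit. Depth, strand use in counting, annotation and tool roles were not given in the sources used here. Libraries were grouped by title, and members were matched by NCBI gene ID to RefSeq symbols of GRCm38.p6.

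Ratios were differences of log2(FPKM + 1) over genes at 1 FPKM or more in at least 1 library of the tissue, centred on the median gene in liver and counted at 2-fold, with 1.5-fold as an alternative. Counts of the enzymes at 1.5-fold, or above and below 0, were added after the values were seen. With 1 library per group no test was run. The members and lists were chosen with earlier results of these data known. All members were named; other pathway lists gave at most 4 genes past 2-fold with the largest ratio (Fads2 was added after its values were seen), and marker lists their sums and at most 3 markers. Promoter letters came from RefSeq. Alternatives were other pseudocounts, scalings, filters, folds and the mean. The code was tested on simulated data, with Python 3.11.15, numpy 2.4.6 and pandas 2.3.3.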

Additional observations from a re-analysis of the deposited data

How the results depend on the processing

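Directions and counts were recomputed under median-of-ratios or same-sum scaling, pseudocounts of 0.1 and 5 FPKM, a filter at 5 FPKM or none, the other centring, a fold of 1.5, and the mean over members. Of 276 such counts and medians 254 stayed close to the value reported, and no single member past 2-fold changed sign. Close meant a median moved by less than 0.585 log2 units, or a count that was equal or within 1.5-fold. The medians over NASH are smaller than that limit, so this tally cannot show that their direction is stable. The enzyme median of the low dose over NASH in liver, 0.10 and -0.04 as deposited, counted as close. Counts of 0 that stayed at 0 also counted as close. In liver NASH over control, same-sum scaling gave 5 members higher, 10 lower, a median of -0.31 over members and -0.76 over enzymes. Members higher there were 1 with no filter, 2 as deposited (20.5% of all genes) and 1 at 1.5-fold (15.6%). For the high EV dose over NASH in liver, 0 members were higher with a pseudocount of 5 FPKM, same-sum scaling or as deposited. At 1.5-fold 2 were higher with the high dose (4% of all genes) and 1 with the low dose (2.29%). In colon NASH over control, 1 member was higher with a pseudocount of 0.1 FPKM or same-sum scaling. At 1.5-fold 2 were higher (8.69% of all genes) and 9 lower (5.34%). Enzymes 1.5-fold lower were 4 with a pseudocount of 5 FPKM and 2 with same-sum scaling. At 1.5-fold, colon members over NASH were 2 higher (4.09% of all genes) and 2 lower (8.46%) with the low dose. With the high dose 4 were higher (2.65% of all genes), and in high over low dose 2 were higher (4.2%). The cause of these shifts was not tested. Shares of all genes were not computed with same-sum or median-of-ratios scaling, other pseudocounts or other filters. No replicate could be left out, and no paired analysis was possible because each group has 1 library. Genes near 1 FPKM, such as Mvd, Sqle and Mbtps2 in liver, are limited by the pseudocount, and FPKM give no depth.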
